A study of Mus musculus with 8 samples.

Results

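The Ifitm genes encode small membrane proteins, and 4 of them, Ifitm1, Ifitm2, Ifitm3 and Ifitm6, were followed here through the monocytes, macrophages and neighbouring cells of the mouse colonic lamina propria. They are 4 of the 16889 gene rows of the deposited table of unique molecular identifiers (UMIs, one per captured transcript), and 4 of the 7 rows of the Ifitm family. These 4 were chosen from earlier results of the same cells. By levels in the cell classes, an interferon-induced kind of member was set there against one called restricted to monocytes. That name is loose for Ifitm6, which was found in other cells as well. The difference of the 4 genes between conditions was part of the choice. Their levels and differences are therefore given below as a description, with no test of them. The other rows of the family were sparse in the cells kept, with 401 UMIs for Ifitm7, 22 for Ifitm5 and 2 for Ifitm10, against 49053 for Ifitm3, 32103 for Ifitm2, 11140 for Ifitm1 and 3681 for Ifitm6.

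Proteins of this family sit in the plasma membrane and in the membranes of endosomes, where they hinder the fusion of enveloped viruses with the cell. Ifitm3 is the member best known for this in endosomes, Ifitm1 acts more at the cell surface, and Ifitm2 resembles Ifitm3. Type I interferon binds a paired receptor, whose kinases activate the STAT proteins and Irf9, and these bind response elements in the promoters of interferon-stimulated genes. Ifitm6 is the least studied of the 4. In the colon, blood monocytes enter the lamina propria and mature there into resident macrophages.

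All 8 mice were female CD98hcΔCX3CR1 littermates, 6–12 weeks old, that carried floxed alleles of Slc3a2 (CD98hc, the heavy chain of an amino acid transporter) and a Cx3cr1-driven, tamoxifen-dependent Cre with a YFP reporter. The 4 control mice were given corn oil and the 4 conditional knockout (cKO) mice tamoxifen, on 5 consecutive days, and cells were sorted on day 7, counted from the first injection. Viable CD11b+ cells that carried CCR2 or CD64 were sorted, and each mouse was loaded into its own well for 10x 3′ single-cell RNA sequencing. Tamoxifen was given to the cKO mice alone, so that an effect of the drug and one of the deletion cannot be told apart, and recombination can take place only in cells that use the Cx3cr1 promoter.

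The cell filter kept 3213 of 5947 barcodes, 1863 of control and 1350 of cKO mice, with 589135 to 3762314 UMIs per control mouse and 497531 to 2486236 per cKO mouse. Control replicate 3 and cKO replicate 5 held 85 and 83 cells, against 349 to 724 in the other 6 mice, and 26 barcode names occurred in 2 wells. Slc3a2 itself was at 233 to 493 CPM (UMIs of the gene scaled to the total of all UMIs of the same cells) in the control mice and 291 to 357 CPM in the cKO mice, a log2 fold change of 0.02 (SE 0.21). By class it was lower in Il1a/Saa3-led cells of 2 control and 3 cKO mice (-1.04, SE 0.28, edgeR adjusted p = 0.046, with 0.915% of genes called). It did not pass in the other classes tested. These are counts of transcript 3′ ends, which lie outside the excised exon, and do not check the deletion. Cells were clustered without the Ifitm genes and the interferon genes, and the tree was cut into a set number of 9 classes. These were named from marker genes or otherwise from their leading genes. The sort was for myeloid cells, but 192 cells were lymphoid-like (led by Jchain, Mzb1 and Cd79a), 86 were stromal-like (Dcn, Col3a1) and 531 were dendritic cell-like (Cd209a, Xcr1, Flt3). The monocyte-like cells (404, with Chil3, Mgst1 and Ly6c2 among their leading genes) and macrophage-like cells (433, led by Fcrls, Pf4, C1qc and Apoe) were the myeloid classes with clear markers. A second macrophage-like class of 253 cells had a median of 0.238 of the UMIs per cell of its own mouse and is called low-depth macrophage-like. The 3 classes left unnamed were led by Fam213b and Gdf15 (528 cells), by Cebpb and Vegfa (338 cells, at 0.358 of the UMIs per cell of their mouse) and by Il1a and Saa3 (448 cells).

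All 4 genes lie in one stretch of 63088 bases on mouse chromosome 7, and each has 2 exons in its main transcript (GENCODE vM21 on GRCm38, the build that the counts were made on). Ifitm2 lies at chr7:140954837-140955987 on the minus strand, Ifitm1 at chr7:140967221-140969825 on the plus strand, Ifitm3 at chr7:141009586-141010770 and Ifitm6 at chr7:141015699-141017924, both on the minus strand. The 250 bases before the RefSeq transcription start are shown for all 4, because they differ in the response elements they hold. Capitals mark a match, on either strand, to the letters of the interferon-stimulated response element (GAAA, any 2 bases, GAAA) or of the gamma-activated site bound by STAT proteins (TTC, any 3 bases, GAA). The windows are chr7:140967826-140968075 for Ifitm1, chr7:140955962-140956211 for Ifitm2, chr7:141010745-141010994 for Ifitm3 and chr7:141016893-141017142 for Ifitm6, each printed on the strand of its gene.
Ifitm1: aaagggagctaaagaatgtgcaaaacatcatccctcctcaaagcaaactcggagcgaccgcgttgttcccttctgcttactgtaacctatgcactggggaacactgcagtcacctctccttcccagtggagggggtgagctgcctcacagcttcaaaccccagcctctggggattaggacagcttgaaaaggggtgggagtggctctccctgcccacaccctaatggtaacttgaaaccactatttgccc
Ifitm2: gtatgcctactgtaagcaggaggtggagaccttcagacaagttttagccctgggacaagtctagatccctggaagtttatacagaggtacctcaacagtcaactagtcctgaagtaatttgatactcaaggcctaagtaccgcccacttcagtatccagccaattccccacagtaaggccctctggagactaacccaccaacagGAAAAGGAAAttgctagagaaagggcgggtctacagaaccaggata
Ifitm3: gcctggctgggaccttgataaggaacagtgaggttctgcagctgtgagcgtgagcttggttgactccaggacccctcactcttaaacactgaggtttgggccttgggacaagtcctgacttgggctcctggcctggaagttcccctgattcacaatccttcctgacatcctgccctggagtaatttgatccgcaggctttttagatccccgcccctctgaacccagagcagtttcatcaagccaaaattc
Ifitm6: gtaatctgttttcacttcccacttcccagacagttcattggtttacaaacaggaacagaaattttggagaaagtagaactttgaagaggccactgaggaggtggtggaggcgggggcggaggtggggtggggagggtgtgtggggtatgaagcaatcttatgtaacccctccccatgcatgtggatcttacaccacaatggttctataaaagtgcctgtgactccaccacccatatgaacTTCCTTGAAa

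Ifitm2 held the response element letters 46 to 37 bases before its start, at chr7:140955998-140956007. In Ifitm3 the first 250 bases before the start held neither motif, and the matches lay just after it, as its first 30 transcribed bases show.
Ifitm3, first bases: agGAAAAGGAAAcTTCTGAGAAACCGAAAc
Here the capitals run through 3 matches, the response element letters at bases 3 to 12 (chr7:141010733-141010742) and 20 to 29 (chr7:141010716-141010725) and the gamma-activated site letters at bases 14 to 22 (chr7:141010723-141010731), which overlap the second of them. Ifitm6 held no response element match and one gamma-activated site match, 10 to 2 bases before its start at chr7:141016894-141016902, and Ifitm1 held neither. For Ifitm1 and Ifitm6, which have 3 annotated transcripts each, the window shown lies inside the annotated gene. Sequence before starts further upstream was not searched. Among 32851 RefSeq windows of the same length (250 bases before to 50 after the start), 3.44% held the response element letters and 8.30% the gamma-activated site letters. For the 30 genes of the interferon response list below that had a window, the letters were found in 15 and 6. A match is a run of letters and not a measured binding site, and no match says nothing of the factor.

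The reads were 58 bases long, and the family members share sequence with each other, with pseudogenes and, for Ifitm2, with an overlapping gene. Of the 58-base windows of the annotated transcripts, 46.5% of those of Ifitm2 occurred in another gene as well. The share was 6.44% for Ifitm3, 2.86% for Ifitm1 and none of 846 for Ifitm6. Of the 278 shared Ifitm2 windows, 211 occurred in Gm45717, a gene annotated as protein-coding that overlaps Ifitm2 on the same strand. Gm45717 has no row in the table. The pseudogenes that share windows with Ifitm2, led by Gm11951 with 74, have none either. Counts of Ifitm2 are therefore the least certain of the 4, and those of Ifitm6 are not touched by this. The pseudogene Gm7676 on chromosome 8, which shares windows with Ifitm1 and Ifitm3, had its own row with 4504 UMIs in 1562 cells.

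Over all cells kept, Ifitm3 and Ifitm6 were higher in the cKO mice, by 2.39-fold and 2.64-fold, while Ifitm2 was 1.46-fold higher with groups that overlapped, and Ifitm1 varied between the mice of each group. Ifitm3 stood at 1736, 1157, 1636 and 2636 CPM in control replicates 1 to 4 and at 2922, 3670, 5285 and 4059 CPM in cKO replicates 5 to 8. Every cKO mouse was above every control mouse, with means of 1791 ± 617 and 3984 ± 987 CPM (SD, n = 4 each) and a log2 fold change of 1.25 (SE 0.25). Of all 11387 genes tested in these sums, 4.00% had every cKO mouse above every control mouse. In the barcodes left out by the cell filter Ifitm3 was at 1153 ± 329 CPM in control and 2437 ± 217 CPM in cKO mice (SD, n = 4 each), again without overlap, as was the case in this direction for 1.62% of genes.

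Ifitm6 was at 136, 84.7, 52.6 and 203 CPM in the control mice and at 193, 299, 410 and 283 CPM in the cKO mice. The groups overlapped by one pair of mice, the highest control (replicate 4) and the lowest cKO (replicate 5), with means of 119 ± 65.6 and 296 ± 89.0 CPM (SD, n = 4 each) and a log2 fold change of 1.40 (SE 0.34). Ifitm2 was at 1623, 1042, 1360 and 2127 CPM in the control mice and 1678, 1955, 2741 and 2006 CPM in the cKO mice, a log2 fold change of 0.55 (SE 0.22), and control replicate 4 exceeded 3 of the 4 cKO mice. Ifitm1, at 457, 273, 506 and 1386 CPM against 179, 602, 848 and 400 CPM, had ranges that overlapped widely (log2 fold change of -0.25, SE 0.49). Its sign turned to 0.42 without control replicate 4, the mouse with the highest value, and to 0.03 without cKO replicate 5, the lowest. Levels of different genes can be set side by side here only as molecules counted, since 3′ counts do not grow with transcript length: on that scale Ifitm3, at a mean of 2888 CPM over the 8 mice, was exceeded by 45 of the 11387 genes and by none of the 41 interferon response genes tested, and Ifitm6, at 208 CPM, by 709 genes.

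**Figure D1:**
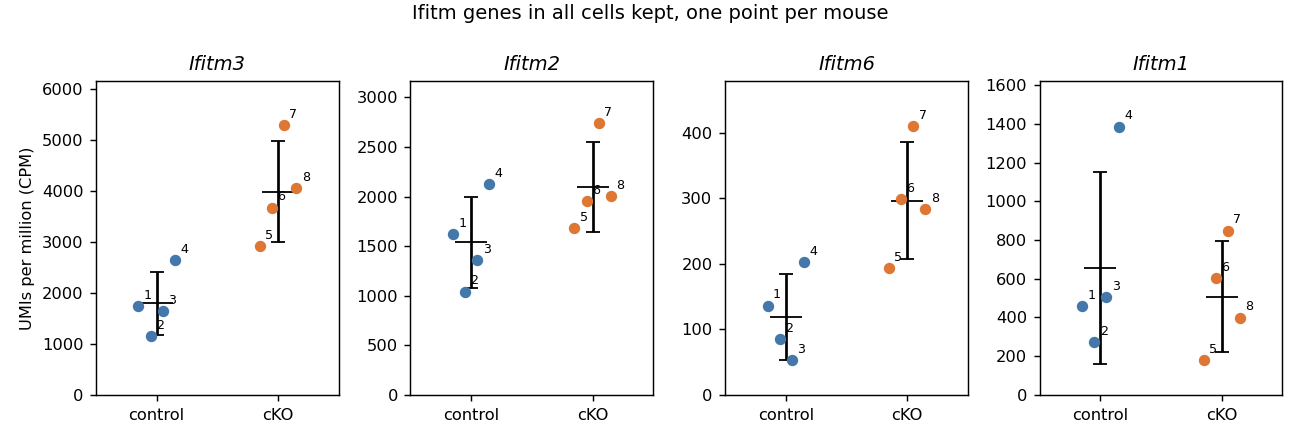
Level (CPM, linear axis from 0) of each Ifitm gene summed over all cells kept of a mouse, with one point per mouse labelled by its replicate number and bars for the mean ± SD of 4 mice. For Ifitm3 the lowest cKO mouse (2922 CPM) is above the highest control mouse (2636 CPM), whereas for the other genes the groups overlap.

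The sorted cells did not have the same make-up in the 2 groups, and the 4 genes were far from evenly spread over the classes. Monocyte-like cells were 6.36 ± 2.06% of the cells of a control mouse and 18.7 ± 4.24% of those of a cKO mouse, and dendritic cell-like cells 24.1 ± 3.18% and 7.64 ± 2.34% (SD, n = 4 each). The sort gate bounds which cells could enter these shares. In summed counts, more cells of a class and more RNA per cell cannot be told apart. The summed level of the 10 monocyte markers was 1789 to 3460 CPM in the control mice and 7163 to 10566 CPM in the cKO mice, with no marker at 0 in any mouse, and that of the 14 macrophage markers 11905 to 23707 and 9994 to 16132 CPM. To hold the make-up fixed, the class levels of a mouse were averaged with the same weights (the share of each class in all UMIs) in the 6 mice that had 8 classes with at least 5 cells. Ifitm3 was then at 2193, 1890 and 2622 CPM in control replicates 1, 2 and 4 and at 3163, 4110 and 3577 CPM in cKO replicates 6, 7 and 8. These groups again did not overlap, as was the case in this direction for 7.13% of genes, and the difference of mean log2 levels was 0.70, against 1.30 for the same mice with their own make-up. For Ifitm6 the same weights left 223, 144 and 237 CPM in the control mice and 203, 249 and 227 CPM in the cKO mice, groups that overlapped, with a difference of 0.20 in place of 1.30. For Ifitm2 the difference moved from 0.53 to 0.19, and for Ifitm1 from 0.08 to 0.52.

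**Figure D2:**
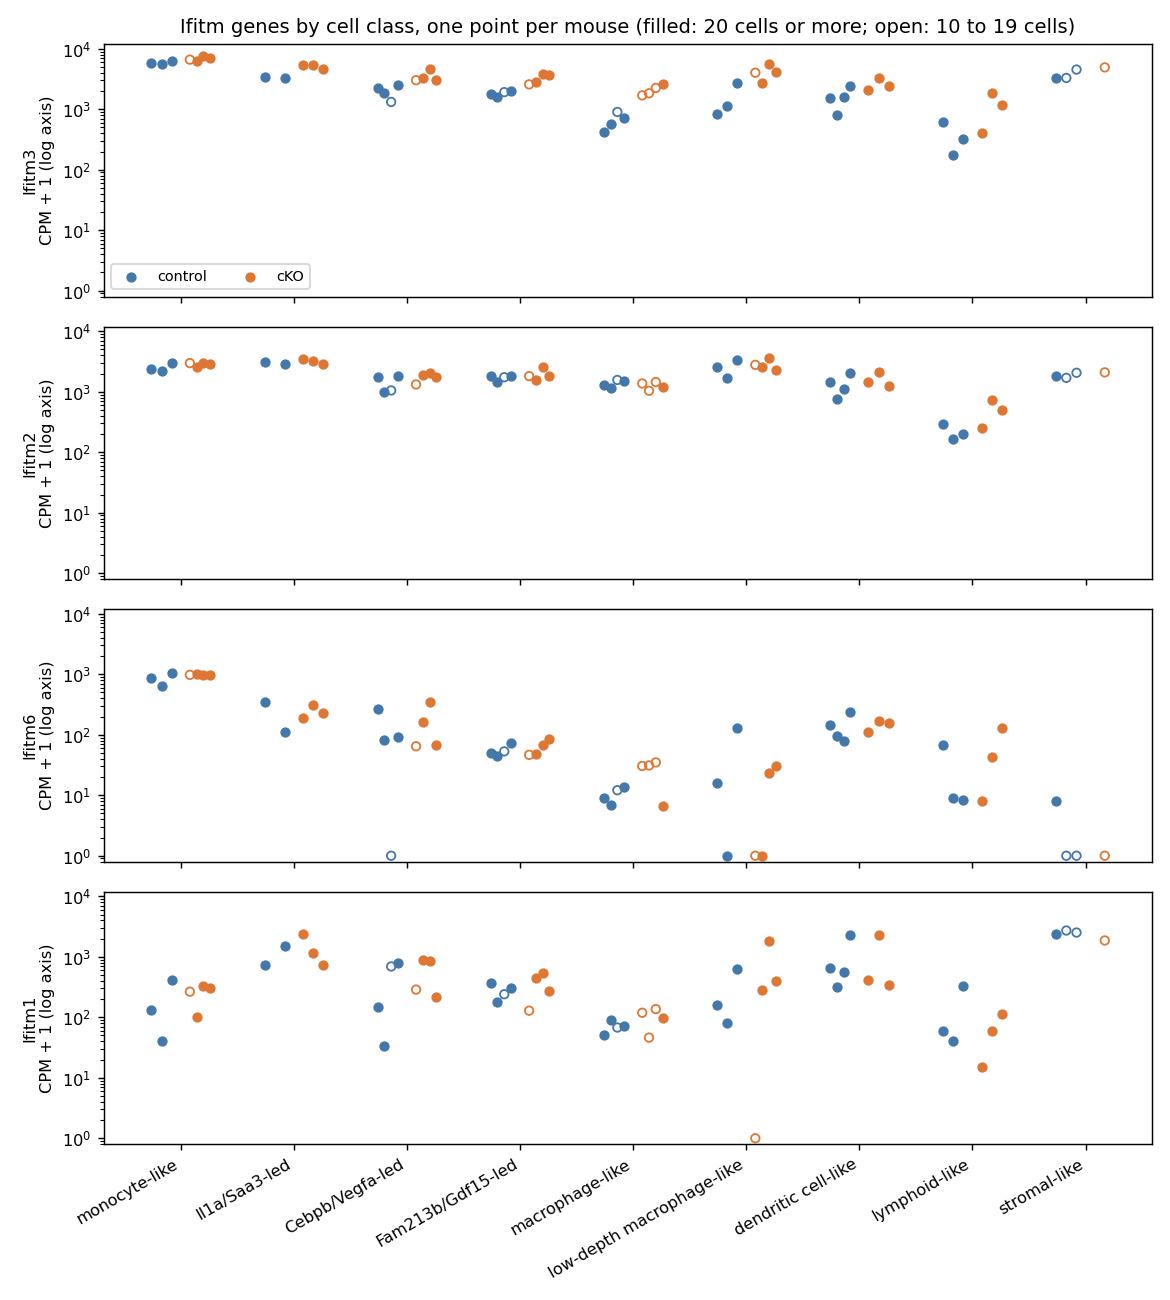
Level of each Ifitm gene (CPM + 1, log axis) in each cell class, with one point per mouse in blue for control and orange for cKO. Filled points rest on 20 cells or more and open points on 10 to 19 cells. The control mean of Ifitm6 is 850 CPM in monocyte-like cells and 8.81 CPM in macrophage-like cells, and that of Ifitm3 is 5953 and 575 CPM.

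Ifitm6 was concentrated in monocyte-like cells but not confined to them. Dendritic cell-like cells held 20.2% of its UMIs and Il1a/Saa3-led cells 15.9%. Monocyte-like cells made up 12.6% of the cells and a like share of all UMIs, but held 53.9% of the Ifitm6 UMIs. Control replicates 1, 2 and 4 had 858, 651 and 1041 CPM there and cKO replicates 6, 7 and 8 had 992, 972 and 988 CPM. The cKO mice thus lay inside the control range, with a log2 fold change of 0.36 (SE 0.34) and means of 850 ± 195 and 984 ± 10.8 CPM (SD, n = 3 each). In control mice the next classes were the Il1a/Saa3-led cells at 228 ± 166 CPM (n = 2), the Cebpb/Vegfa-led cells at 145 ± 101 CPM (n = 3) and the dendritic cell-like cells at 139 ± 72.3 CPM (n = 4). These 3 did not differ beyond their spread, and monocyte-like cells were above all of them in every mouse. Below them came the Fam213b/Gdf15-led cells (54.6 ± 15.3 CPM), the low-depth macrophage-like (48.0 ± 70.8 CPM) and lymphoid-like cells (27.0 ± 33.8 CPM), and the macrophage-like cells (8.81 ± 3.54 CPM, n = 3 each), each within the range of the one before.

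In macrophage-like cells the Ifitm6 count was 14 UMIs in 351 control cells and 8 in 82 cKO cells. Per 100 Ifitm3 UMIs this is 1.38 and 0.878 Ifitm6 UMIs, against 14.4 and 14.0 in monocyte-like cells. Lymphoid-like cells, the class outside the myeloid and stromal cells, had 7.38 and 5.26 per 100 Ifitm3 UMIs, from 11 and 25 UMIs. Whether free RNA of other cells adds to counts this low was not tested. In cells thinned to 1000 UMIs each, 56.5% of 131 control and 52.8% of 269 cKO monocyte-like cells had an Ifitm6 UMI (85.7% and 91.1% before thinning, at median depths of 4331 and 5485 UMIs), against 1 of 344 control and 1 of 78 cKO macrophage-like cells. Lymphoid-like cells had an Ifitm6 UMI in 7.37% of 95 control and 12.4% of 97 cKO cells before thinning (median depths of 3565 and 3170 UMIs). Monocyte-like cells are far above that share, and macrophage-like cells, at 3.70% and 9.76%, are within it.

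Ifitm3 had its highest level in monocyte-like cells too, but was found in every class. In control mice it stood at 5953 ± 384 CPM in monocyte-like cells (n = 3), 3304 ± 65.2 CPM in Il1a/Saa3-led cells (n = 2) and 2202 ± 322 CPM in Cebpb/Vegfa-led cells (n = 3), in 3 ranges that did not overlap. The Fam213b/Gdf15-led (1788 ± 193 CPM, n = 3), dendritic cell-like (1590 ± 653 CPM, n = 4) and low-depth macrophage-like cells (1572 ± 1019 CPM, n = 3) followed and did not differ from their neighbours in this order beyond their spread. Macrophage-like cells (575 ± 147 CPM) and lymphoid-like cells (366 ± 222 CPM, n = 3 each) were lowest, with ranges that overlapped each other. The one stromal-like sum of 20 cells or more, of control replicate 1, was at 3226 CPM.

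The largest Ifitm3 fold changes were found in both macrophage-like classes and in lymphoid-like cells. In macrophage-like cells the level was 426, 580, 900 and 719 CPM in the control mice and 1695, 1835, 2250 and 2656 CPM in the cKO mice. The groups did not overlap (1.29% of genes in this comparison had every cKO mouse above every control mouse), and the log2 fold change was 1.58 (SE 0.29). These sums go down to 10 cells (11 to 37 cells in the cKO mice), since with the limit of 20 cells a single cKO mouse was left. Low-depth macrophage-like cells were at 836, 1144 and 2735 CPM in control replicates 1, 2 and 4 and at 2759, 5525 and 4092 CPM in cKO replicates 6, 7 and 8 (1.51, SE 0.34, with 2.82% of genes not overlapping in this direction). The gap between the groups there was small, since control replicate 4 and cKO replicate 6 were nearly equal. Lymphoid-like cells, at 609, 172 and 318 CPM against 410, 1875 and 1183 CPM, had a like fold change (1.64, SE 0.35) but overlapping groups, where 3.62% of genes had every cKO mouse above every control mouse. The lymphoid-like values rest on 149 control and 475 cKO UMIs. In the same class the monocyte markers summed to 3627 CPM and the macrophage markers to 3459 CPM. Whether free RNA of other cells adds to Ifitm3 there was not tested.

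In the other classes the differences were smaller. Fam213b/Gdf15-led cells had 1788, 1595 and 1981 CPM in control and 2811, 3791 and 3668 CPM in cKO mice, a log2 fold change of 0.89 (SE 0.31). Il1a/Saa3-led cells had 3350 and 3258 CPM against 5358, 5466 and 4712 CPM (0.75, SE 0.35), and Cebpb/Vegfa-led cells 2246, 1859 and 2499 CPM against 3331, 4554 and 3073 CPM (0.74, SE 0.32). In all 3 classes every cKO mouse was above every control mouse, as were 7.15%, 10.3% and 4.10% of genes. In dendritic cell-like cells (1553, 801, 1607 and 2399 CPM against 2059, 3294 and 2423 CPM) the groups overlapped, at a log2 fold change of 0.64 (SE 0.29) and with 3.12% of genes not overlapping in this direction. The dendritic cell-like class mixes 2 kinds of cell with unlike Ifitm3 levels, which are given by kind below. Monocyte-like cells had 5769, 5696 and 6395 CPM in control and 6347, 7485 and 6942 CPM in cKO mice, overlapping groups with a log2 fold change of 0.37 (SE 0.31), where 7.03% of genes did not overlap in this direction. Within the monocyte-like class, the summed level of the 14 macrophage markers was 3438 to 8556 CPM in the control mice and 1391 to 2155 CPM in the cKO mice, and that of the 10 monocyte markers 10201 to 14177 and 17557 to 19849 CPM. Between 0 and 5 of the macrophage markers and at most 1 of the monocyte markers were at 0 in a mouse, and the 2 mast cell markers with a row were at 0 in all. The part of these differences in the Ifitm values was not tested.

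The share of cells with an Ifitm3 UMI, counted over all mice of a group, was also higher in the cKO mice in every class with room to rise. After thinning to 1000 UMIs, 39.0% of 344 control and 83.3% of 78 cKO macrophage-like cells had one (73.2% and 95.1% before thinning). In low-depth macrophage-like cells it was 60.3% of 78 and 92.1% of 89 cells, and in lymphoid-like cells 18.9% of 90 and 38.0% of 92 cells. Fam213b/Gdf15-led cells had 69.4% and 89.0%, Cebpb/Vegfa-led cells 75.5% and 88.3%, and Il1a/Saa3-led cells 87.4% and 96.3%. Dendritic cell-like cells had 54.8% and 74.5%, and stromal-like cells 90.8% and 100% (18 cKO cells). Monocyte-like cells were near the upper end in both groups, with 99.2% of 131 and 99.6% of 269 cells, so that this share could not rise there. By mouse, the macrophage-like share was 37.9%, 35.4% and 60.6% in control replicates 1, 2 and 4, and 94.4% in cKO replicate 8, the one cKO mouse with enough cells.

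**Figure D3:**
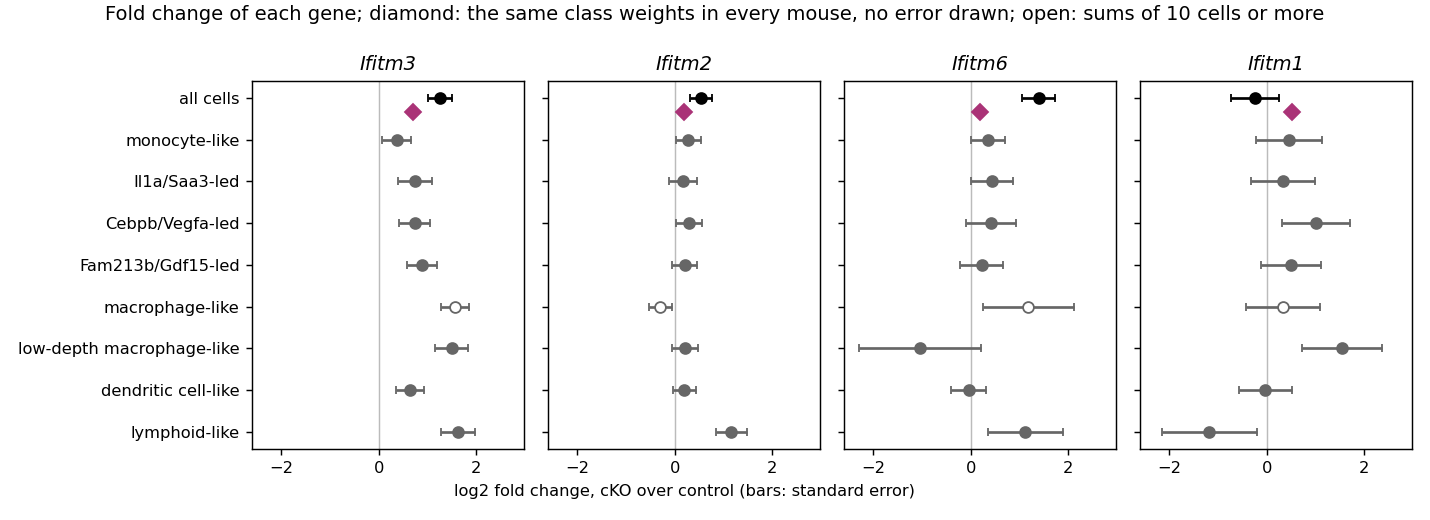
Log2 fold change of each Ifitm gene, cKO over control, over all cells and by cell class, with bars for the standard error. Open circles rest on sums of 10 cells or more, the others on 20 or more, and diamonds give the difference with the same class weights in every mouse, with no error drawn. For Ifitm3 all values lie above 0, from 0.37 in monocyte-like to 1.64 in lymphoid-like cells, whereas the bars of Ifitm6 cross 0 in 4 of the 8 classes and reach close to it in Il1a/Saa3-led and monocyte-like cells.

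The log2 fold changes of the classes are set against that of the monocyte-like class here with their standard errors and no test, since the levels by class and condition entered the choice of the genes. For Ifitm3 the log2 fold change in lymphoid-like cells was larger than in monocyte-like cells by 1.27 (SE 0.47), and that in low-depth macrophage-like cells by 1.14 (SE 0.46). At sums of 10 cells or more the macrophage-like value was larger by 1.31 (SE 0.40). In the other 4 classes the Ifitm3 values were larger by less or little more than their standard errors. The differences were 0.28 (SE 0.42) in dendritic cell-like, 0.37 (SE 0.44) in Cebpb/Vegfa-led, 0.38 (SE 0.46) in Il1a/Saa3-led and 0.52 (SE 0.43) in Fam213b/Gdf15-led cells. For Ifitm6 the dendritic cell-like minus monocyte-like difference was -0.40 (SE 0.50), smaller than its standard error. It was -1.39 (SE 1.30) for low-depth macrophage-like cells, from 7 control and 4 cKO UMIs, and 0.77 (SE 0.84) for lymphoid-like cells.

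Ifitm2 was the most even of the 4 among the myeloid classes. In control mice it ran from 3027 ± 156 CPM in Il1a/Saa3-led cells (n = 2) through 2517 ± 392 CPM in monocyte-like cells to 1325 ± 165 CPM in macrophage-like cells (n = 3 each). Lymphoid-like cells alone were far below, at 220 ± 66.2 CPM (n = 3). Between conditions its log2 fold change within a class was 0.17 to 0.29 in 6 of the 7 classes with a contrast, with standard errors of 0.24 to 0.28, and 1.17 (SE 0.31) in lymphoid-like cells (293, 165 and 202 CPM against 247, 732 and 504 CPM, overlapping groups). In macrophage-like cells at 10 cells or more it was -0.30 (SE 0.24), so that Ifitm2 and Ifitm3 exchanged places there. Of the UMIs of the 4 genes, macrophage-like control cells had 67.1% from Ifitm2 and 28.7% from Ifitm3, and cKO cells 34.4% and 62.3%. In monocyte-like cells the same shares were 26.5% and 62.3% in control and 25.4% and 63.4% in cKO cells.

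**Figure D4:**
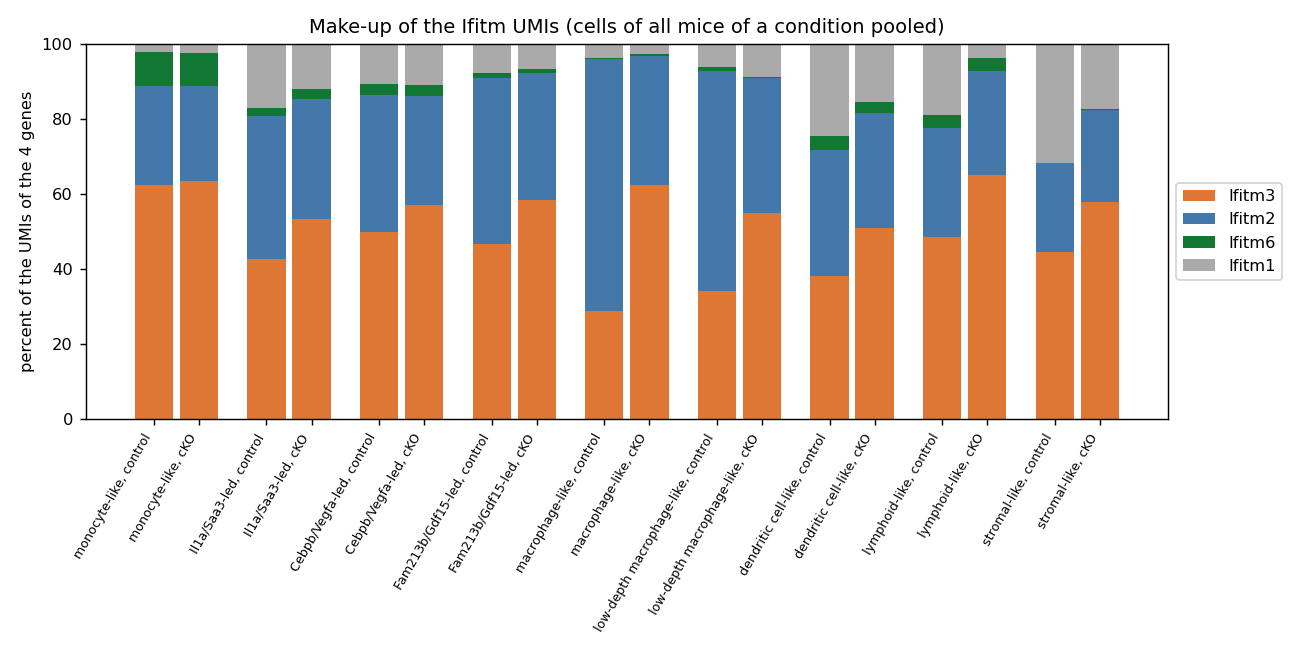
Percent of the UMIs of the 4 Ifitm genes that came from each gene, by cell class and condition, with the cells of all mice of a condition pooled and no replicate error. In macrophage-like cells the Ifitm2 part falls from 67.1% in control to 34.4% in cKO cells, and the bars of monocyte-like cells are nearly alike.

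Ifitm1 was highest in stromal-like, Il1a/Saa3-led and dendritic cell-like cells. The Il1a/Saa3-led class was left unnamed, but all 10 monocyte markers and 11 of the 14 macrophage markers were detected in it. Stromal-like cells of control replicate 1 had 2425 CPM, and the pooled stromal-like cells 2499 CPM in control and 1608 CPM in cKO (18 cells) mice. In control mice, Il1a/Saa3-led cells had 735 and 1507 CPM and dendritic cell-like cells 652, 310, 560 and 2322 CPM, while macrophage-like cells had 49.9 to 89.9 CPM. Dendritic cell-like cells held 42.6% of all Ifitm1 UMIs with 16.5% of the cells.

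Within the dendritic cell-like class, Ifitm1 differed between 2 kinds of cell in the control mice. Cutting the tree into 12 clusters split it into cells led by Cd209a and Klrd1 and cells led by Xcr1 and Cd24a. The first kind had Ifitm1 at 1430, 1289 and 3890 CPM in control replicates 1, 2 and 4, and the second at 114, 81.0, 252 and 411 CPM in the 4 control mice. The Cd209a/Klrd1-led cells were 43.8%, 23.2% and 59.5% of the dendritic cell-like cells of control replicates 1, 2 and 4. Among cKO mice the Xcr1/Cd24a-led cells had 26.9, 1785 and 4.79 CPM in 12 to 20 cells each, a spread wider than the difference between the groups. Ifitm3 and Ifitm6 split in the same direction in the control mice, with Ifitm3 at 3027, 2677 and 3663 CPM in the first kind and 361 to 858 CPM in the second, and Ifitm6 at 277, 342 and 346 CPM and 20.2 to 109 CPM. In cKO replicates 6, 7 and 8 Ifitm3 was at 4200, 4554 and 4115 CPM in the first kind. It was at 1422, 2486 and 929 CPM in the second. Within each kind these values lay above the control values given, from 10 to 24 cells per cKO sum. The share of all genes that did so was not computed. The clusters were built from these cells, so that this is a description and no test. Control replicate 4 had the highest control value of Ifitm1 in both kinds. The part of their mix in the spread between mice was not tested.

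Between conditions, Ifitm1 gave no stable direction. Its log2 fold change was 1.55 (SE 0.82) in low-depth macrophage-like, 1.02 (SE 0.71) in Cebpb/Vegfa-led, 0.46 (SE 0.68) in monocyte-like, -0.03 (SE 0.55) in dendritic cell-like and -1.19 (SE 0.98) in lymphoid-like cells. The groups overlapped in each of these. In dendritic cell-like cells it was -1.40 without cKO replicate 7, and in lymphoid-like cells it was 0.37 without control replicate 4.

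Among the interferon-stimulated genes to which the family belongs, nearly the whole list rose in the cKO mice. Of 41 interferon response genes tested, 38 were higher over all cells at an adjusted p under 0.05 (edgeR quasi-likelihood test), against 4.48% of all genes in either direction, and all 41 had a log2 fold change above 0. The median log2 fold change of the list was 1.52, and that of all genes was -0.03. The largest were 4.34 (SE 0.39) for Ifi44, 3.08 (SE 0.25) for Oas3, a sensor of double-stranded RNA, 2.97 (SE 0.29) for Irf7, the factor that amplifies interferon transcription, 2.65 (SE 0.33) for Isg15, a ubiquitin-like modifier, 2.57 (SE 0.46) for Ifit3b and 2.55 (SE 0.21) for Oasl2. Gbp2 (0.63, adjusted p = 0.356), Mx1 (1.03, adjusted p = 0.072) and Ifit2 (1.52, adjusted p = 0.079) did not pass. With the 1.25 of Ifitm3, 25 of the 41 genes had a larger log2 fold change, and with the 1.40 of Ifitm6, 21 had. These ranks hold for all cells with the make-up that each mouse had. With the same class weights in 6 mice the difference was 0.70 for Ifitm3 and 0.20 for Ifitm6. No ranking of the list was made with these weights. The list was written with earlier results of these cells known, so that its count is not independent evidence. Without control replicate 1, or without control replicate 2, 24 genes passed.

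Within classes fewer genes of the same list passed as higher, and none as lower. In monocyte-like cells 6 of 41 passed (Bst2, Oas1a, Ifi27l2a, Isg15, Irf7 and Ifi44, against 0.502% of all genes), with a median log2 fold change of 0.68 and 0.08 for all genes. This count was 2 without control replicate 2, 3 without control replicate 1, cKO replicate 7 or cKO replicate 8, and 11 when the class was fitted alone. In Fam213b/Gdf15-led cells 23 passed (background 0.801%), in Il1a/Saa3-led cells 18 (0.915%), in dendritic cell-like cells 14 (0.370%), and in macrophage-like cells at 10 cells or more 9 (0.351%). In Cebpb/Vegfa-led cells 3 passed (0.176%), in lymphoid-like cells 3 (0.0880%) and in low-depth macrophage-like cells 2 (0.0528%). In these last classes the median log2 fold changes of the list were 1.34, 1.32 and 1.76, in the same order. Of the 41 genes, 37, 41 and 36 were above 0 there. The medians of the classes before them ran from 1.14 in dendritic cell-like to 1.63 in Il1a/Saa3-led cells, apart from the 0.68 of monocyte-like cells. The order of the counts was thus not that of the medians, and the reason was not tested.

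**Figure D5:**
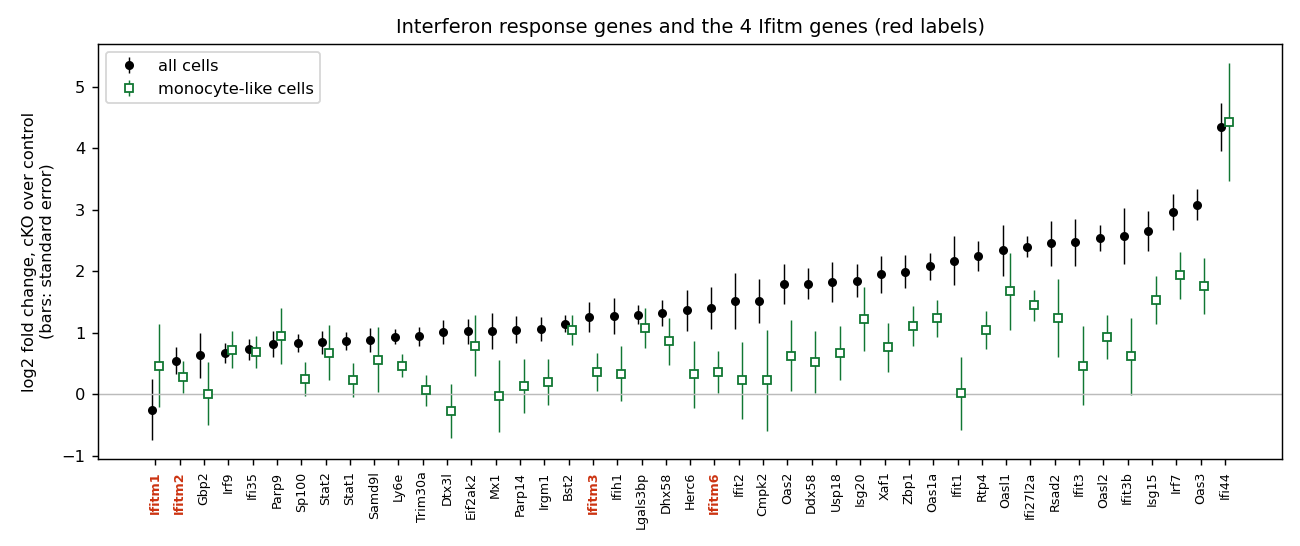
Log2 fold change, cKO over control, of the interferon response genes tested and of the 4 Ifitm genes (red labels), over all cells (filled circles) and in monocyte-like cells (open squares), with bars for the standard error. Ifitm3 (1.25 and 0.37) and Ifitm6 (1.40 and 0.36) lie in the middle of the list over all cells, and most genes lie lower in monocyte-like cells than in all cells.

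Of 10 genes for interferon receptors and their signal transduction, 1 passed over all cells and was lower, Irf8, a factor of monocyte and dendritic cell development (log2 fold change of -0.89, SE 0.18, adjusted p = 0.020). In monocyte-like cells Irf8 was at -0.13 (SE 0.24) and did not pass. Dendritic cell-like cells were 24.1% of the cells in control and 7.64% in cKO mice. The part of this shift in the Irf8 value was not tested. Of 12 genes for proteins reported to bind, modify or sort Ifitm proteins, 1 passed and was higher, Vapa, which binds Ifitm3 at sites of contact between membranes (0.98, SE 0.23, adjusted p = 0.036). Neither passed without control replicate 2 or without cKO replicate 7. Over all genes 4.48% were called in this comparison, so that 1 call in lists this short is near the background. The other genes of both lists, among them the receptor genes Ifnar1 (0.01, SE 0.18) and Ifnar2 (0.33, SE 0.14), did not pass.

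The genes around the family were followed over all cells as well. Within 200000 bases of the 4 genes, 35 other genes outside the family are annotated and 13 were tested over all cells. Of these, 5 had a log2 fold change above 0 and 8 below. Those that passed were 2 and lower, against 4.48% of all genes called in either direction: Sirt3, a mitochondrial deacetylase (log2 fold change of -0.92, SE 0.22, adjusted p = 0.038), and Pgghg (-0.68, SE 0.17, adjusted p = 0.046). The other 11, from Cyp2e1 (1.15, SE 0.51) to Sigirr (-0.83, SE 0.31), did not pass, and the next tested neighbour beyond Ifitm6, Pkp3, was at -0.58 (SE 0.22).

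Across 47 sums of a mouse and a class, the levels of the 4 genes moved together to unequal degrees. Pearson correlations of log2(CPM + 1) were 0.82 for Ifitm2 with Ifitm3, 0.63 for Ifitm3 with Ifitm6, 0.57 for Ifitm1 with Ifitm2, 0.53 for Ifitm1 with Ifitm3, 0.40 for Ifitm2 with Ifitm6 and 0.29 for Ifitm1 with Ifitm6. The sums share mice, wells and depth, and are not independent, and shared sequence can add to the first value. Among 6790 genes with at least 10 CPM on average, the genes most like Ifitm6 included Napsa (0.82), S100a4 (0.78), Plac8 (0.77) and B3gnt5 (0.76), of which Plac8 was a marker used for the monocyte class. Ifitm3 was most like Plac8 (0.89), the interferon response gene Oasl2 (0.83), Ifitm2 (0.82), Gm7676 (0.82) and Tspo (0.81). Ifitm2 was most like Sh3bgrl (0.86), Litaf (0.85), Ifitm3 (0.82), Sdcbp (0.82) and Zeb2os (0.80). For Ifitm1 the likeness was weaker, with Psma5 (0.70), Hnrnpa3 (0.69), Nsmce1 (0.68), Timp1 (0.68) and Igfbp6 (0.66).

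Single cells carried the members in different numbers. After thinning to 1000 UMIs, 8.40% of control and 10.4% of cKO monocyte-like cells had UMIs of all 4 genes. Of macrophage-like cells, 23.3% in control and 8.97% in cKO mice had no UMI of any of the 4, and of lymphoid-like cells 68.9% and 54.3%.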

How the data were processed

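Single-cell libraries of 8 mice, 1 well each on the same day and cartridge, were processed by the authors with Cell Ranger and STAR 2.5.3a on mm10 (Ensembl 84 genes plus EYFP), 1 alignment being kept per read, and were deposited as one table of raw UMI counts per gene and cell. Barcodes named per well were split by mouse, and the study's cell filter was applied (log10 UMIs of at least 2.8, log10 genes of at least 2.6, at most 5% mitochondrial UMIs, no hemoglobin UMI). Cells were clustered with scran 1.30.0 (Ward clustering on 8 principal components), with the Ifitm genes, the tested lists, Slc3a2 and EYFP left out. The number of clusters was set to 9, whereas the study reached 9 by a dynamic cut of its tree. A cluster was named where at least 2 of its 10 leading genes by fold and at least 3 detected genes were markers of one type. The ranking of leading genes was settled after the clusters were seen. Scrublet, run with scanpy 1.11.5, called 15 control and 58 cKO cells doublets, which were kept and left out in an alternative.

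UMI counts were summed per mouse, over all cells or per class from 20 cells, and fitted with edgeR 4.0.16 (R 4.3.3; TMM, glmQLFit and glmQLFTest), for genes above 1 CPM in at least 3 sums and with UMIs in at least 20 cells. The class sums entered 1 fit. A gene was called at a Benjamini-Hochberg adjusted p under 0.05 over all genes tested. The planned test of whether the members' differences varied between classes is not reported, since the members were chosen on these levels. Intervals of counts were not used, and shares of cells carry counting error and the spread between mice. In the fits over all cells the p-values measure the spread between mice. The class fit had no term for the mouse, so that sums of one mouse from different classes entered as independent values. Its p-values therefore do not measure the spread between mice alone. Alternatives used DESeq2 1.42.0, limma 3.58.1, other filters, clusterings and each mouse left out, and the fits were tested on simulated data. To compare shares of cells, each cell was thinned to 1000 UMIs, which left out 178 shallower cells.

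The members and the gene lists were chosen with earlier results of these data known. Genes named in the text are the 4 members, Slc3a2, the 5 genes most like each member (Pearson, log2(CPM + 1); one is not reported here), the 6 called interferon response genes of largest change and the 3 not called of highest level, the called receptor and partner genes, and tested neighbours within 200000 bases. Genes named beyond this rule, such as Gm7676, Ifnar1, Ifnar2 and the 6 genes called in monocyte-like cells, were chosen after their values were seen. Positions are from GENCODE vM21 and promoter sequences from RefSeq (GRCm38.p6), in which all 4 members had a window. The cell classes depend on clustering, and 88 of the 16889 rows have no symbol.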

Additional observations from a re-analysis of the deposited data

Results flagged for a closer look

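Ifitm1 in the dendritic cell-like cells of control replicate 4 was at 2322 CPM, against 310 to 652 CPM in the other 3 control mice. Its gap to the nearest mouse was 0.83 of the range of the group, just above Dixon's critical value for 4 samples. Of 20 groups of 4 looked at, chance alone flags about 1 in 20. cKO replicate 7 was at 2285 CPM in the same class. Within the class, the Cd209a/Klrd1-led cells of control replicate 4 had 3890 CPM and the Xcr1/Cd24a-led cells 411 CPM, the highest control value in both.

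The barcodes left out by the cell filter, which lie outside the cells analysed, also held more Ifitm3 in the cKO mice. In 2734 such barcodes it was at 817, 924, 1445 and 1424 CPM in control replicates 1 to 4 and at 2149, 2392, 2611 and 2597 CPM in cKO replicates 5 to 8, with a cKO mean of 2437 CPM. Every cKO mouse was above every control mouse, as for 1.62% of genes in these barcodes. These values rest on 789 and 1516 UMIs.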

How the results depend on the processing

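With the same class weights in the 6 mice that allowed them, the difference of mean log2 levels was 0.70 for Ifitm3 and 0.20 for Ifitm6, against 1.30 for each in the same mice unweighted. The fits over all 8 mice gave 1.25 and 1.40. Here the weights take out the class shares by construction. In all other settings tried the values of the 4 genes over all cells stayed within the spread between mice, including DESeq2, limma-voom, no low-count filter, all barcodes, doublet calls left out, and lymphoid-like and stromal-like cells left out. With each mouse left out in turn they ranged from 1.07 to 1.49 for Ifitm3, 1.18 to 1.77 for Ifitm6, 0.37 to 0.74 for Ifitm2 and -0.64 to 0.42 for Ifitm1. Leaving out both mice under 100 cells, an alternative chosen after seeing the data, gave 1.37, 1.36, 0.62 and -0.06, and left 38 interferon genes called.

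The interferon list had 24 to 38 genes called over all cells and 2 to 6 in monocyte-like cells with a mouse left out, against 38 and 6, and 11 in monocyte-like cells when each class was fitted alone. The receptor and partner lists together had 0 to 2 against 2. The cause was not tested.

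Within classes, 87 alternative values per gene were computed, and the sign was kept in 87 for Ifitm3, 82 each for Ifitm1 and Ifitm2 and 81 for Ifitm6. Class levels depend on the clusters: with 7 clusters or with all genes clustered, the mean of Ifitm3 in monocyte-like cells was 5359 or 3895 CPM and that of Ifitm6 573 or 341 CPM, against 6439 and 917 CPM. No paired analysis was possible because the control mice are numbered 1 to 4 and the cKO mice 5 to 8, so that no number is shared. Depth limits Ifitm6 outside the monocyte-like class most, where a class sum can hold fewer than 10 of its UMIs.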

Other observations

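Ifitm7, the family member on chromosome 16, was followed by none of the comparisons above. Over all cells it was at 18.2 ± 15.2 CPM in the control and 43.1 ± 16.7 CPM in the cKO mice (SD, n = 4 each, overlapping ranges), from 135 and 266 UMIs. In monocyte-like cells it was at 17.1 ± 3.66 and 48.4 ± 25.6 CPM (SD, n = 3 each), and every cKO mouse was above every control mouse, as for 7.03% of genes in this class. Ifitm7 did not overlap either in Cebpb/Vegfa-led cells (6.60 ± 5.72 and 48.5 ± 17.8 CPM, 4.10% of genes). The same held in Fam213b/Gdf15-led cells (7.63 ± 4.91 and 28.9 ± 10.6 CPM, 7.15% of genes, SD, n = 3 each). Its groups overlapped in Il1a/Saa3-led, dendritic cell-like, low-depth macrophage-like and lymphoid-like cells. Ifitm5 had 12 and 10 UMIs and Ifitm10 had 1 and 1 over all control and all cKO cells.

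Ifitm6 was nearly equal in the monocyte-like cells of the 3 cKO mice, at 972 to 992 CPM, while the 3 control mice spanned 651 to 1041 CPM. cKO replicate 5, with 11 monocyte-like cells, was at 979 CPM. For each 100 Ifitm3 UMIs, Ifitm2 had 234 UMIs in control and 55.2 in cKO macrophage-like cells, and 42.5 and 40.1 in monocyte-like cells.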
